A study of Mus musculus with 15 samples.

Results

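The 10 keratinocyte fate transcription factors described here were the genes Trp63, Gata3, Klf4, Zfp750, Grhl1, Grhl3, Ovol1, Cebpa, Cebpb and Prdm1, taken as those rows of the deposited count tables whose Ensembl identifier maps to these symbols. All 10 were found among the 37583 genes of the tables, and all 10 passed the filter on low counts. The libraries held RNA of skin tumour cells from C57BL/6 mice treated with the mutagen DMBA and the tumour promoter TPA for more than 24 weeks. Cells were sorted on the surface proteins CD34, a marker of hair follicle bulge cells, and integrin alpha 6 (a6, encoded by Itga6), a laminin receptor of basal keratinocytes, into 3 populations: CD34+ a6-high, CD34- a6-high and CD34- a6-low. Mice were WT or labelled SIRT6 KO (K14-cre; SIRT6 flox/flox), in which a Cre recombinase under the keratin 14 promoter acts in keratinocytes and leaves other cells of the tumour with their Sirt6 alleles. Each population was represented by 3 WT and 2 KO libraries, 15 in all. The labels give no age of the mice.

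Keratinocytes divide in the basal layer and stop dividing as they move outward and build the barrier. The p53 family member p63 holds the basal epithelial identity and opens the genes that its successors use. Zfp750 and Klf4 act downstream of p63 and raise late differentiation genes, the grainyhead-like factors Grhl1 and Grhl3 control junction and barrier genes, Ovol1 restrains proliferation and mesenchymal genes, and the bZIP factors Cebpa and Cebpb accompany the exit from the cell cycle. Gata3 takes part in hair follicle and barrier lipid programmes, and Prdm1 (Blimp1) is a repressor expressed in granular and sebaceous cells. Gata3, Prdm1, Klf4, Cebpa and Cebpb are also expressed in leukocytes.

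The promoters of Grhl3, Prdm1 and Gata3 are shown because these were the members whose levels differed between the a6-high populations by the widest margins. Each line gives the 250 bases before the RefSeq start, 5′ to 3′ on the strand of the gene in GRCm38.p6, with motif matches in capitals. Grhl3 lies at chr4:135573633-135573882, Prdm1 at chr10:44458749-44458998 and Gata3 at chr2:9878601-9878850, and all 3 read from the minus strand. The windows of Prdm1 and Gata3 lie inside the genes as GENCODE M21 annotates them, whose outermost starts are at chr10:44528501 and chr2:9890034.
Grhl3: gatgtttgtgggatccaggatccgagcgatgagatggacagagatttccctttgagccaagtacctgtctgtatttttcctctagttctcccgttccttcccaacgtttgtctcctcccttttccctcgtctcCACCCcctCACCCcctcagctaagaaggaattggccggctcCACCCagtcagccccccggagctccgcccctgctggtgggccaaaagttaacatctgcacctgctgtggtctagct
Prdm1: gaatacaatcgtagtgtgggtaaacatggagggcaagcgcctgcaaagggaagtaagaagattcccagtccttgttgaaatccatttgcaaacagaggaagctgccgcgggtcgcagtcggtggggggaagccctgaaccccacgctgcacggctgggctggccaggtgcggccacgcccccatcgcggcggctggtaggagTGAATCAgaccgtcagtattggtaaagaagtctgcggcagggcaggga
Gata3: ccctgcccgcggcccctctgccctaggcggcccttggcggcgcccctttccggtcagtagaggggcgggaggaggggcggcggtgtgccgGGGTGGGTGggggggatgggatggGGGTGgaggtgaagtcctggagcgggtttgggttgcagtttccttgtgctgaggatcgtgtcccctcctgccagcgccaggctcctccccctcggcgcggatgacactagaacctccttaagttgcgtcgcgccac
In Grhl3 the capitals mark 3 matches to the KLF core CACCC, which begin 117, 109 and 76 bases before the start. In Prdm1 they mark 1 match to the AP-1 motif TGANTCA at 48 to 42 bases before the start. In Gata3 they mark 3 KLF core matches on the opposite strand, the first 2 of which share a base at 156 bases before the start. Of the 10 members 7 had a promoter in the table (Grhl1 with 2 starts), and Ovol1, Trp63 and Zfp750 had none. On either strand the KLF core was found in 5 of these 8 promoters, against 52.0% of all 32851 promoters of this length, and AP-1 in 1 of 8, against 6.7%. The TATA box TATAAA was found in 1 of 8, that of Cebpa at 30 to 25 bases before the start, against 12.4%. The GRHL core ACCGGT (1.9% of all promoters), the CEBP motif TTGCNNAA (9.6%), the GATA core GATAA (22.6%) and the p53 family site (searched by its consensus, 7.1%) had no match in these windows.

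The GENCODE M21 annotation (GRCm38) places Trp63 (ENSMUSG00000022510) at chr16:25683763-25892102, Klf4 (ENSMUSG00000003032) at chr4:55527143-55532466, Zfp750 (ENSMUSG00000039238) at chr11:121510978-121519333 and Ovol1 (ENSMUSG00000024922) at chr19:5549136-5560646. Grhl1 (ENSMUSG00000020656) lies at chr12:24572283-24617391, Grhl3 (ENSMUSG00000037188) at chr4:135541888-135573630 and Prdm1 (ENSMUSG00000038151) at chr10:44437177-44528501. Cebpa (ENSMUSG00000034957) lies at chr7:35119293-35121928, Cebpb (ENSMUSG00000056501) at chr2:167688915-167690418 and Gata3 (ENSMUSG00000015619) at chr2:9857078-9890034. The libraries do not mark strand, and several members overlap other genes. Zfp750 overlaps Tbcd, Cebpb overlaps Tmem189, Trp63 overlaps the snRNA gene Gm24928 and Gata3 overlaps Gm13256, 4930412O13Rik and 9230102O04Rik, all of them counted genes. Reads shared with a counted gene may have been set aside as ambiguous. Ovol1 overlaps Gm31166 and AC126029.1, Cebpa overlaps Gm45091 and Trp63 also overlaps Gm27005, which the deposited counts do not hold. Some reads of the members named here could belong to their neighbours.

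Gene counts came to 10.08 to 28.62 M a library (M, 1e6). KO libraries held 19.78 to 28.62 M and WT libraries 10.08 to 21.56 M, so depth was tied in part to genotype. Levels are given as CPM, gene counts per 1e6 counts of the TMM-scaled library. The targeted gene Sirt6 ranged from 5.07 to 8.53 CPM over the 6 KO libraries and from 4.45 to 10.5 CPM over the 9 WT ones, and since the counts cover the whole gene they do not check a floxed deletion. Cd34 lay at 163 to 214 CPM in CD34+ and at 4.51 to 40.3 CPM in CD34- libraries. Itga6 ranged from 263 to 576 CPM with high a6. Of the libraries labelled a6-low, those of KO replicate 1 and WT replicates 2 and 3 had 67.9, 94.1 and 174 CPM of Itga6, while those of WT replicate 1 (471 CPM) and KO replicate 2 (445 CPM) lay within the a6-high range. Ddx3y, a Y-linked gene, was expressed by KO replicate 2 alone, at 51.9 to 74.9 CPM in its 3 libraries, and did not exceed 0.222 CPM elsewhere. KO replicate 2 thus held male cells, which no WT library showed, so sex is tied in part to genotype. Keratinocyte marker genes (6 of 6 detected in every library) summed to 42152 to 88637 CPM. In bulk libraries like these, fewer cells of a type and less RNA per cell cannot be told apart.

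Per exon length (TPM, mean of 15 libraries), Cebpb was the most abundant member with 681 TPM, followed by Ovol1 with 273 TPM and Klf4 with 119 TPM. Zfp750 (96.4 TPM), Grhl3 (92.4 TPM) and Trp63 (59.6 TPM) came next, then Gata3 (37.9 TPM) and Grhl1 (30.8 TPM), with Cebpa (14.0 TPM) and Prdm1 (13.5 TPM) last. Cebpb exceeded Ovol1, Ovol1 exceeded Klf4 and Grhl1 exceeded Cebpa in 15 of 15 libraries. The other neighbours in this order changed places between libraries, with the first higher in 7 to 12 of 15. With the longest transcript as the length, Grhl3 and Trp63, Gata3 and Grhl1, and Cebpa and Prdm1 traded ranks. Across the 15 libraries Trp63 was the steadiest of the 10, with a highest CPM 1.72 times its lowest, and Zfp750 the most variable, with a ratio of 15.9.

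**Figure D1:**
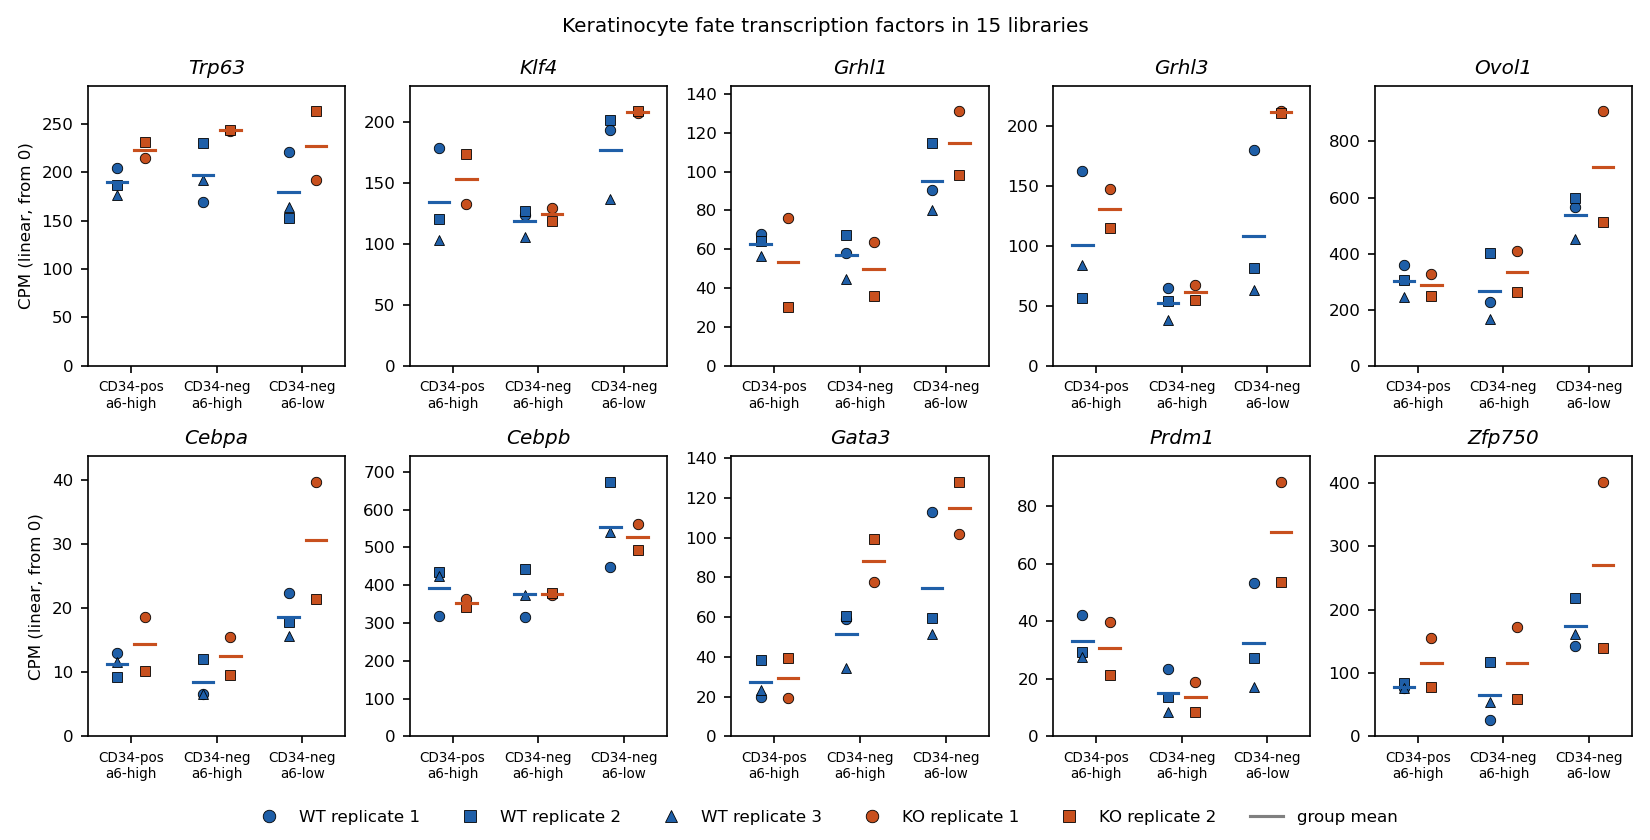
Level of each member (CPM, linear axis from 0) in the 15 libraries, grouped by population, with WT and KO libraries in separate colours and horizontal bars at the group means. Trp63 lies between 153 and 263 CPM throughout, while Ovol1 reaches 453 to 907 CPM in CD34- a6-low libraries and stays at or under 410 CPM in the a6-high ones.

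Trp63, the basal identity factor, was at a like level in all populations. It averaged 203 ± 21.7 CPM (SD, n = 5, both genotypes) in CD34+ a6-high, 216 ± 33.5 CPM in CD34- a6-high and 199 ± 44.7 CPM in CD34- a6-low libraries, and the ranges overlapped. The largest of its 3 population differences was 0.12 ± 0.15 (log2, SE) in a6-high minus a6-low cells (edgeR adjusted p = 0.839). The other 9 members all had lower mean levels in CD34- a6-high than in CD34- a6-low cells, and Grhl3 and Prdm1 alone were lower in the CD34- a6-high library than in both other libraries of its label in 5 of 5 cases.

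Comparing CD34- a6-high with CD34- a6-low cells asks what differed with a6 among CD34- cells. Prdm1, the repressor of the granular layer, was at 88.5 and 53.8 CPM in KO and 53.4, 27.1 and 17.0 CPM in WT a6-low libraries (replicates in order). In a6-high libraries it was at 18.9 and 8.41 CPM in KO and 23.3, 13.6 and 8.44 CPM in WT. The ranges overlapped, since WT replicate 3 of the a6-low cells lay under the highest a6-high value, but within every one of the 5 pairs of same-numbered libraries the a6-low value was the higher. Its difference, a6-high minus a6-low, was -1.74 ± 0.39 (log2, SE; edgeR adjusted p = 0.189).

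Grhl3, which drives barrier genes, was at 212 and 211 CPM in KO and at 180, 81.2 and 62.9 CPM in WT a6-low libraries. In a6-high libraries it was at 67.5 and 55.0 CPM in KO and at 64.7, 53.7 and 38.5 CPM in WT. The KO libraries and WT replicate 1 stood well above all a6-high libraries, and WT replicates 2 and 3 near them (-1.42 ± 0.33, log2, SE; edgeR adjusted p = 0.189). Its relative Grhl1 showed no overlap. Grhl1 was at 131 and 98.5 CPM in KO and 90.6, 115 and 80.3 CPM in WT a6-low libraries, against 63.9 and 35.7 CPM in KO and 58.2, 67.5 and 44.9 CPM in WT a6-high libraries (-0.97 ± 0.25, edgeR adjusted p = 0.226).

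Ovol1, the zinc finger repressor, was at 907 and 514 CPM in KO and 568, 597 and 453 CPM in WT a6-low libraries. Its a6-high values were 410 and 262 CPM in KO and 228, 402 and 168 CPM in WT, all under the lowest a6-low value (-1.05 ± 0.26, edgeR adjusted p = 0.204). Cebpa, a bZIP factor of cells leaving the cell cycle, was at 39.7 and 21.5 CPM in KO and 22.3, 17.8 and 15.7 CPM in WT a6-low libraries. In the a6-high libraries Cebpa was at 15.5 and 9.59 CPM in KO and 6.56, 12.1 and 6.6 CPM in WT. The 2 groups met without overlap, at 15.5 and 15.7 CPM (-1.21 ± 0.28, edgeR adjusted p = 0.189).

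Klf4, Cebpb and Zfp750 were ordered the same way. Klf4 averaged 121 ± 9.33 CPM (SD, n = 5) in a6-high and 190 ± 30.3 CPM in a6-low libraries, without overlap (log2 -0.66 ± 0.17 SE). Cebpb averaged 378 ± 45.6 against 543 ± 84.5 CPM, also without overlap, at 443 and 449 CPM (log2 -0.52 ± 0.15 SE). Zfp750 averaged 85.7 ± 59 against 213 ± 111 CPM, and its a6-high libraries ranged from 25.4 CPM in WT replicate 1 to 172 CPM in KO replicate 1, which overlapped the a6-low range (log2 -1.32 ± 0.43 SE). Gata3 averaged 66.2 ± 24 against 90.9 ± 33.5 CPM, with overlap (log2 -0.46 ± 0.29 SE).

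None of the 10 members passed the edgeR test without a block in the a6 comparison (adjusted p = 0.189 to 0.839), in which 0.00683% of all tested genes were called. At an unadjusted p under 0.05, 8 of 10 members were lower in a6-high cells, all but Trp63 and Gata3, against 11.1% of all genes in either direction. DESeq2 called 6 of 10, namely Klf4, Grhl1, Grhl3, Ovol1, Cebpa and Prdm1, all lower in a6-high cells, against 1.60% of all genes. With genotype and replicate number as a block, although the labels pair no libraries and the pairing check did not hold for 1 WT number here, 5 of 10 members fell in a6-high cells, against 0.410% of all genes called. These were Prdm1 (edgeR adjusted p = 0.00938), Grhl3 (0.0311), Grhl1 (0.0348), Ovol1 (0.0407) and Cebpa (0.0495). The libraries of 5 members (Klf4, Grhl1, Ovol1, Cebpa and Cebpb) did not overlap, against 1.77% of all genes. A further fit left out the 2 a6-low libraries whose Itga6 lay in the a6-high range, on the strength of their Itga6 values. There Cebpa had a difference of -1.32 ± 0.29 (log2, SE), Gata3 one of -0.16 ± 0.30 and Trp63 one of 0.33 ± 0.14. In those 2 libraries Grhl3 was at 211 and 180 CPM and Gata3 at 128 and 113 CPM, high values for the a6-low group.

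CD34+ a6-high cells were set beside CD34- a6-high cells to ask what went with CD34 at a high a6 level. Here the members split. Grhl3 and Prdm1 were higher in CD34+ cells, Gata3 was lower, and the other 7 had differences of -0.09 to 0.31 (log2). Grhl3 was at 147 and 115 CPM in KO and 162, 56.9 and 84.4 CPM in WT CD34+ libraries, and only WT replicate 2 lay within the CD34- range of 38.5 to 67.5 CPM. Within the 5 pairs of same-numbered libraries the difference was 0.08 in WT replicate 2 and 1.06 to 1.32 in the others (log2).

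Prdm1 was at 39.9 and 21.3 CPM in KO and 42.3, 29.4 and 27.5 CPM in WT CD34+ libraries, against 8.41 to 23.3 CPM in CD34- libraries. The ranges met between 21.3 and 23.3 CPM, and each pair had the CD34+ library higher, by 0.85 to 1.65 (log2). Gata3 ran the other way. It was at 19.1 and 39.5 CPM in KO and 19.6, 38.3 and 23.5 CPM in WT CD34+ libraries, against 77.5 and 99.3 CPM in KO and 58.9, 60.6 and 34.5 CPM in WT CD34- libraries. Only the CD34- library of WT replicate 3 fell inside the CD34+ range, and each pair had the CD34+ library lower, by log2 differences of -0.54 to -1.99.

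In this comparison 0 of 10 members passed the edgeR test without a block, in which 1.17% of all genes were called. The differences were -1.26 ± 0.30 for Gata3 (log2, SE; adjusted p = 0.0606), 1.03 ± 0.33 for Grhl3 (adjusted p = 0.14) and 1.15 ± 0.38 for Prdm1 (adjusted p = 0.163), and these 3 were the members at an unadjusted p under 0.05, against 15.1% of all genes. Same-numbered libraries of these 2 populations were taken as pairs, which the labels do not state. Their deviations from the group means correlated weakly in WT (0.13 to 0.264) and at 0.456 in KO. The deepest WT library was replicate 1 in CD34+ cells (21.56 M) but replicate 2 in CD34- a6-high cells (20.53 M). With genotype and replicate number as a block, Gata3 fell (-1.27 ± 0.24, edgeR adjusted p = 0.0168), and Grhl3 (0.97 ± 0.19, adjusted p = 0.0171) and Prdm1 (1.22 ± 0.17, adjusted p = 0.00399) rose in CD34+ cells, 3 of 10 members against 5.41% of all genes. DESeq2 without a block called the same 3 members, against 5.41% of all genes. No member was free of overlap between the groups, against 4.20% of all genes.

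**Figure D2:**
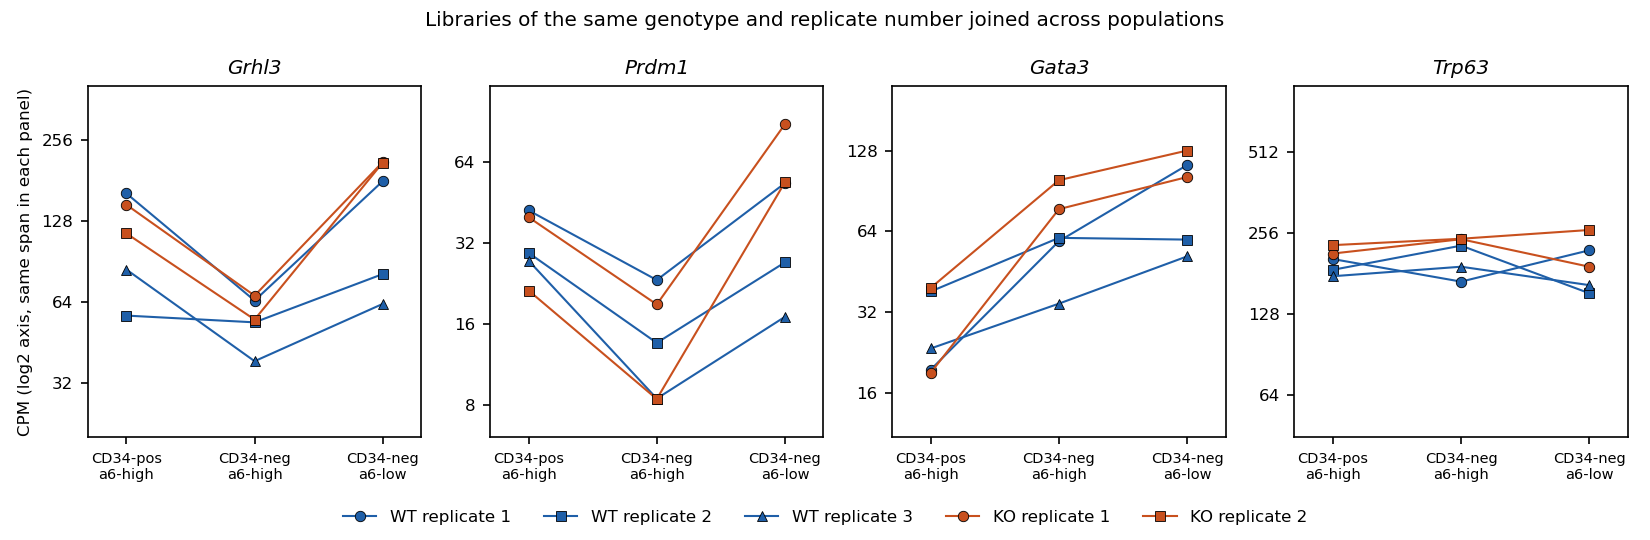
Levels of Grhl3, Prdm1, Gata3 and Trp63 (CPM, log2 axis with the same span in each panel), with libraries of the same genotype and replicate number joined across the 3 populations. Grhl3 and Prdm1 dip in CD34- a6-high libraries in all 5 lines, Gata3 is lowest in CD34+ libraries in all 5, and Trp63 stays between 153 and 263 CPM.

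The third comparison, CD34+ a6-high with CD34- a6-low cells, shares its libraries with the other two and its differences are their sums. Gata3 and Ovol1 fell in CD34+ a6-high cells, 2 of 10 members against 4.93% of all genes called. Gata3 averaged 28 ± 10.1 CPM (SD, n = 5) against 90.9 ± 33.5 CPM, 3.29-fold lower, without overlap (log2 -1.72 ± 0.30 SE, edgeR adjusted p = 0.0143). The Gata3 call was lost without the CD34+ library of KO replicate 1 (log2 -1.50, edgeR adjusted p = 0.0742) and without the 3 libraries that express Ddx3y (log2 -1.94, adjusted p = 0.0508). Ovol1 was at 326 and 249 CPM in KO and 360, 306 and 246 CPM in WT CD34+ libraries, all under the a6-low values given above, 2.09-fold lower (log2 -1.07 ± 0.26 SE, edgeR adjusted p = 0.0365). The Ovol1 call held with either the CD34+ library of WT replicate 1 or the KO replicate 2 library of a6-low cells left out, and was lost without any other of the 10 libraries (edgeR adjusted p = 0.0504 to 0.132).

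With the block, which the pairing check allows here too, 6 of 10 members fell in CD34+ a6-high cells, against 11.8% of all genes called in either direction. To Gata3 (edgeR adjusted p = 0.00341) and Ovol1 (0.00528) it added Grhl1 (log2 -0.91 ± 0.15 SE, adjusted p = 0.00548), Cebpb (-0.54 ± 0.11, 0.0111), Zfp750 (-1.10 ± 0.25, 0.0195) and Cebpa (-0.89 ± 0.21, 0.0228). DESeq2 without a block called 5 of 10 lower, against 10.3% of all genes. Without the block, 7 of 10 were lower in edgeR at an unadjusted p under 0.05 against 21.6%, and 4 (Grhl1, Ovol1, Cebpb and Gata3) had no overlap against 6.91%. Grhl3 and Prdm1 differed by -0.39 ± 0.32 and -0.60 ± 0.38 (log2, SE), and neither passed with or without the block. Their CD34+ values lay between the other 2 populations on average, at 113 ± 43.5 CPM for Grhl3 and 32.1 ± 8.78 CPM for Prdm1 (SD, n = 5).

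**Figure D3:**
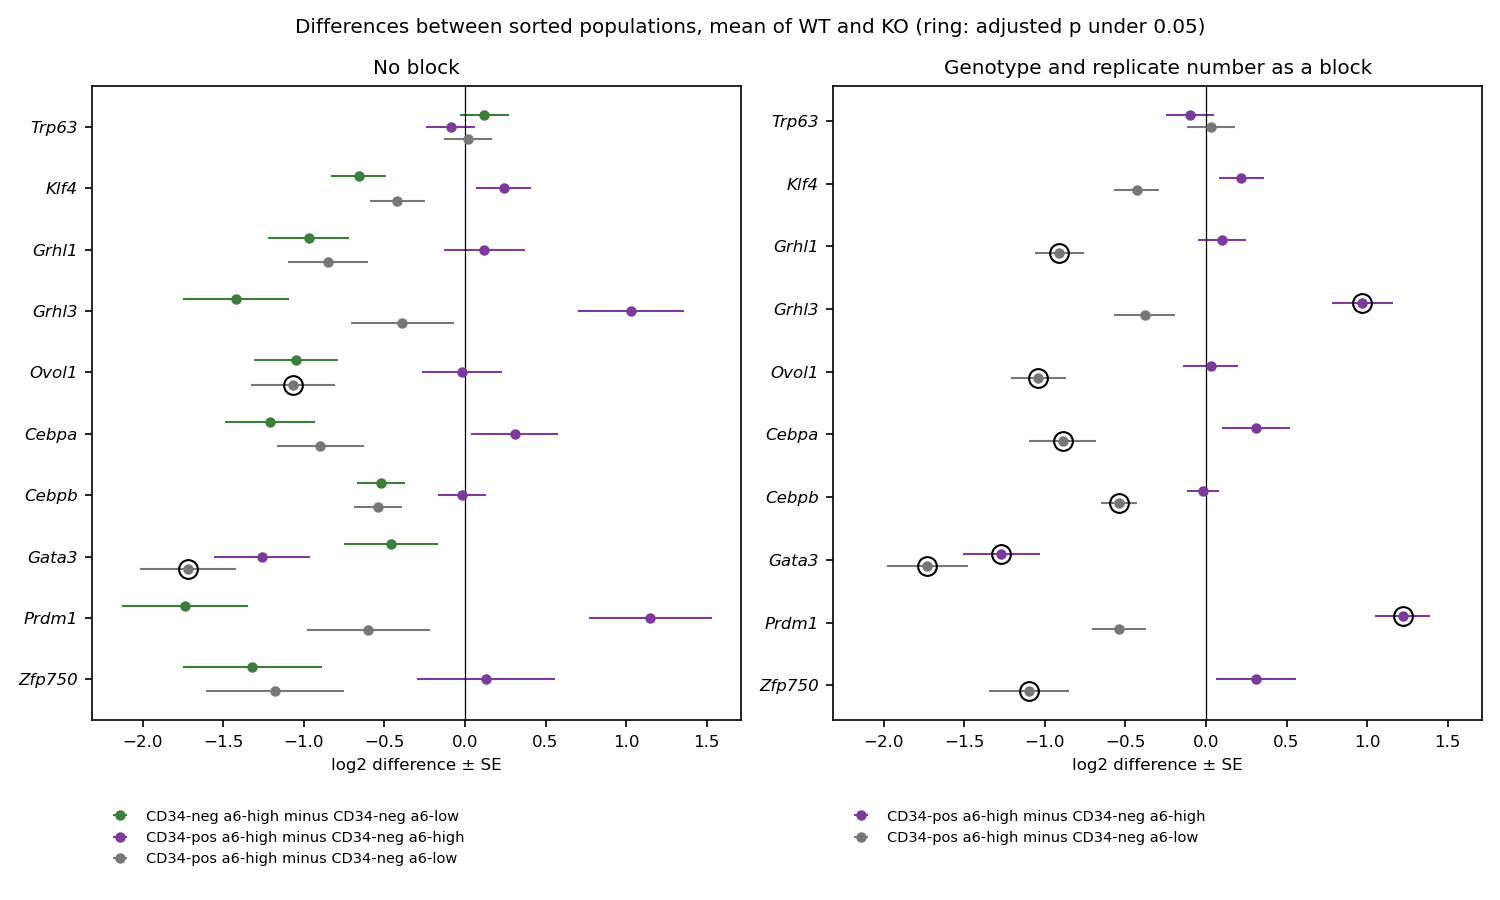
Differences between populations for the 10 members (log2 ± SE, averaged over WT and KO). The left side has all 3 comparisons without a block. The right side has genotype and replicate number as a block, for the comparisons whose libraries were taken as pairs. Rings mark an adjusted p under 0.05: 2 on the left, Ovol1 and Gata3, and 9 on the right.

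The KO libraries were compared with WT libraries in each population, the comparison named in the series design. No member passed in any population. In CD34+ a6-high cells the differences, KO minus WT, ran from -0.24 (Grhl1) to 0.57 (Zfp750) on the log2 scale, and 0.00683% of all genes were called by edgeR and 0.197% by DESeq2. In CD34- a6-high cells they ran from -0.19 (Grhl1) to 0.81 (Zfp750), with 0.00683% and 0.179% of all genes called. In CD34- a6-low cells they ran from -0.07 (Cebpb) to 1.13 (Prdm1), with 0.00683% and 0.0239% called. DESeq2 called 0 members in each population. In edgeR without a block 0 had an unadjusted p under 0.05, against 7.59%, 9.59% and 4.69% of all genes. In CD34- a6-low cells Prdm1 and Grhl3 had an unadjusted p of 0.0377 and 0.0422 by DESeq2. By edgeR with replicate number as a block, a pairing not assumed here, these were 0.00211 and 0.0156, and no member passed.

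The widest genotype differences lay in the a6-low cells. Prdm1 was at 88.5 and 53.8 CPM in the KO libraries and 53.4, 27.1 and 17.0 CPM in the WT libraries, so that the lower KO value lay next to the highest WT value (log2 1.13 ± 0.52 SE, edgeR adjusted p = 0.865). Grhl3 was at 212 and 211 CPM in KO, above the highest WT value of 180 CPM (log2 0.97 ± 0.45 SE, edgeR adjusted p = 0.865). In these a6-low libraries macrophage and dendritic cell markers summed to 168 and 180 CPM (KO) and to 104, 80.4 and 31.1 CPM (WT). Over all 15 libraries Cd74 (up to 156 CPM) and Cd68 (up to 22.5 CPM) were the most abundant of these, and Ptprc did not exceed 2.61 CPM. Melanocyte markers summed to 140 and 3.57 CPM in the KO and to 0.799 to 2.55 CPM in the WT a6-low libraries. Gene counts of these libraries were 28.62 and 23.15 M in KO and 20.27, 10.08 and 16.16 M in WT. The part of other cells and of depth in these differences was not tested. In CD34- a6-high cells Gata3 was at 77.5 and 99.3 CPM in KO, above all 3 WT values, the highest of which was 60.6 CPM (log2 0.78 ± 0.41 SE, edgeR adjusted p = 0.536). Without the 2 a6-low libraries with Itga6 in the a6-high range, 1 KO library remained, taken to vary like the other groups, and Prdm1 had a difference of 2.01 ± 0.60 (edgeR adjusted p = 0.589) and Grhl3 one of 1.56 ± 0.49 (adjusted p = 0.635).

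Counts were also summed over the 3 populations for each genotype and replicate number, 2 KO against 3 WT sums. Of 10 members 9 were higher in KO sums, with Cebpb at -0.06 ± 0.17 and the others between 0.05 (Grhl1) and 0.68 ± 0.40 (Zfp750) on the log2 scale, and 8232 of 15597 genes were higher. This count rested on KO replicate 1: without it 6 of 10 were higher, and Zfp750 was at -0.22, Ovol1 at -0.14 and Grhl1 at -0.37. With the replicate block Grhl1 was at -0.081. In the sums of all libraries no member passed (edgeR adjusted p = 0.472 to 0.953, 0.00641% of all genes called). By edgeR 0 had an unadjusted p under 0.05 (10.6% of all genes). DESeq2 called 0 (0.914% of all genes), with an unadjusted p of 0.0489 for Gata3. Whether the population differences themselves depended on genotype was tested as an interaction. With genotype and replicate number as a block, a pairing not assumed for a6, no member passed by edgeR. The a6 interaction then had an unadjusted p of 0.00201 for Prdm1 (-1.38 ± 0.33, log2, SE) and 0.0391 for Grhl3 (-0.89 ± 0.38). Without the block no member passed by edgeR for CD34 or a6, where 0.00% of all genes were called. There 0 had an unadjusted p under 0.05, against 1.09% and 1.15% of all genes. The largest interaction was that of Prdm1 with a6, whose a6 difference was -2.38 ± 0.61 in KO and -1.11 ± 0.48 in WT (difference -1.27 ± 0.76, log2, SE; edgeR adjusted p = 1).

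**Figure D4:**
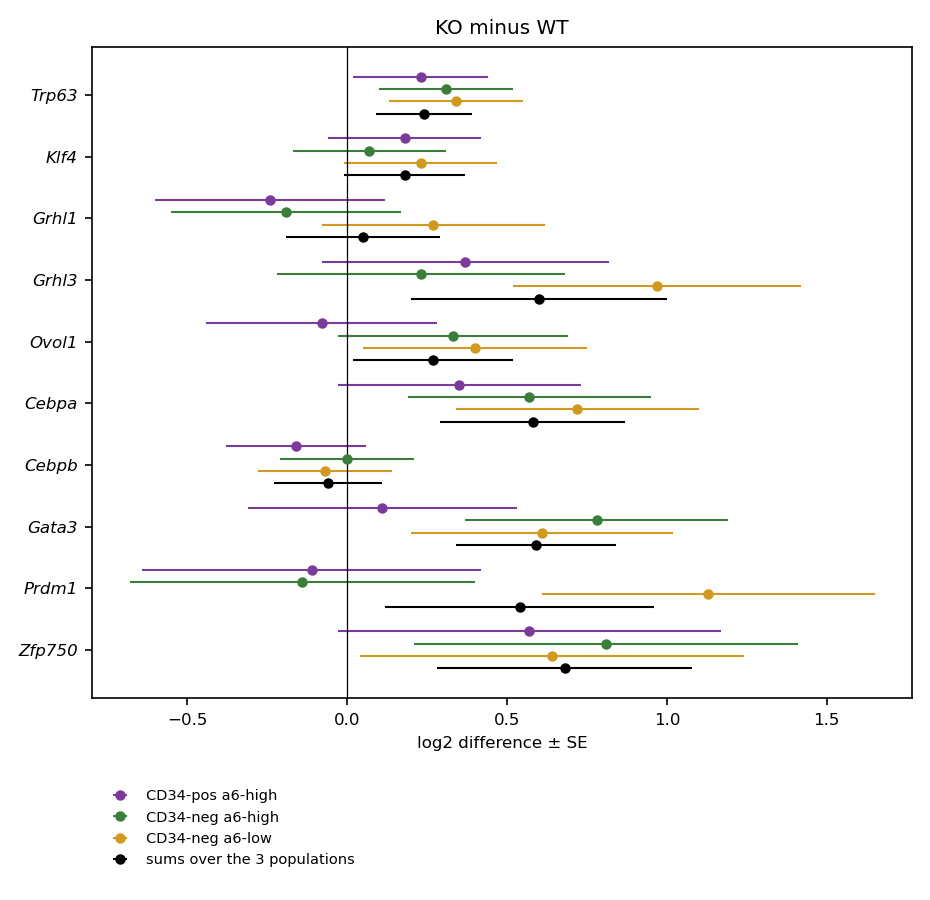
KO minus WT differences of the 10 members (log2, with SE) in each population and in the sums over populations. The points run from -0.24 to 1.13, and none has an adjusted p under 0.05.

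Other epidermal transcription factors, 24 of 25 of which were tested, gave 0 calls by edgeR for CD34 or a6 without the block, where DESeq2 called 3 and 2 lower, and 7 lower and 0 higher by edgeR in CD34+ a6-high than in CD34- a6-low cells, with a median log2 difference of -0.56 against -0.02 over all genes. Those with the smallest p were the epithelial ETS factor genes Ehf (69.6 ± 36.8 against 237 ± 86.6 CPM, SD, n = 5, edgeR adjusted p = 0.0101) and Elf3 (44.9 ± 8.64 against 167 ± 80.2 CPM, adjusted p = 0.0156). Without the libraries that express Ddx3y both calls were lost, with edgeR adjusted p-values of 0.0674 (Ehf) and 0.0744 (Elf3). For CD34, with the block, 3 of 24 fell in CD34+ cells and 0 rose, namely Ehf (log2 -1.25, edgeR adjusted p = 0.0215), Elf3 (-1.02, 0.017) and the POU factor gene Pou2f3 (-1.58, 0.0137). For a6 the smallest p belonged to Klf5 (log2 -0.72 ± 0.15 SE, edgeR adjusted p = 0.179). Of 9 cofactor genes 0 passed in any comparison. Those with the smallest p were the genome organizer gene Satb1 (log2 -2.60 ± 1.08 SE, at under 1 CPM) and the corepressor gene Ctbp1 (-0.29 ± 0.14) for CD34, Ctbp1 (0.25 ± 0.14) and Rcor1 (-0.26 ± 0.15) for a6, and Kdm1a (-0.41 ± 0.18) and Ctbp2 (0.43 ± 0.20) for both markers together.

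Differentiation genes, the structural and barrier genes of the upper layers, were tested for 19 of the 20 on the list. In the a6 comparison 19 of 19 lay lower in a6-high cells and 0 passed by edgeR without the block or by DESeq2, with 2 at an unadjusted p under 0.05. Their median log2 difference was -0.78, against -0.02 over all genes. The lipid transporter gene Abca12 (log2 -1.14 ± 0.36 SE, edgeR adjusted p = 0.287) and Lypd3 (-0.80 ± 0.27, adjusted p = 0.32) had the smallest p. With the block, though these libraries were not taken as pairs, 1 fell, namely Abca12 (log2 -1.10, edgeR adjusted p = 0.0495). With CD34 the list ran in both directions: 14 of 19 were higher and 5 lower in CD34+ cells (median 1.22 against -0.02). Without the block edgeR called 0, with 11 higher at an unadjusted p under 0.05, and DESeq2 called 8 higher. Lypd3 (3609 ± 1268 against 1671 ± 740 CPM, SD, n = 5, edgeR adjusted p = 0.0674) and the lipoxygenase gene Aloxe3 (3.12 ± 1.35 against 0.857 ± 0.649 CPM, adjusted p = 0.0809) had the smallest p. With the block 11 rose and 2 fell. Those that fell, named after their values were seen, were the suprabasal keratin genes Krt1 (log2 -1.14, edgeR adjusted p = 0.0177) and Krt10 (-1.22, adjusted p = 0.0308), and Lypd3 (1.12, 0.0131) and Aloxe3 (1.95, 0.0249) were among those that rose. Between CD34+ a6-high and CD34- a6-low cells edgeR called 0 without the block, where Krt1 (log2 -2.36 ± 0.65 SE, edgeR adjusted p = 0.0562) and the desmoglein gene Dsg1a (-1.76 ± 0.49, 0.058) had the smallest p. DESeq2 called 1 higher and 3 lower, Krt1 (adjusted p = 0.00099) and Dsg1a (0.00348) among the latter. With the block 3 rose and 5 fell by edgeR, both genes again among the latter.

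Basal keratinocyte genes, 15 of 15 tested, gave 0 calls by edgeR without the block, and 13 of 15 were higher in CD34- a6-high than in CD34- a6-low cells (median log2 difference 0.60 against -0.02). The desmosomal gene Perp (-0.41 ± 0.17) and Krt14 (0.39 ± 0.18) had the smallest p for a6, Krt14 (-0.34 ± 0.18) and Dst (-0.62 ± 0.37) for CD34, and the integrin genes Itga3 (1.53 ± 0.50) and Itgb4 (1.09 ± 0.46) for both markers together. Itga3 rose in the last with the block (log2 1.82, edgeR adjusted p = 0.0127) and by DESeq2 without it (adjusted p = 0.0151). Without the 2 a6-low libraries with high Itga6 the differences were 2.96 ± 0.37 for Itga3 and 2.54 ± 0.26 for Itgb4 (log2, SE). These libraries were left out for the level of an integrin gene, so for other integrin genes this fit is no independent test. Between genotypes 0 genes of these 4 lists passed in any population or in the sums. In the sums the genes with the smallest p included Dlx3 (log2 1.32 ± 0.56 SE), Kmt2d and Ep300 (0.53 ± 0.21 and 0.79 ± 0.35), Krt14 and Itga3 (-0.53 ± 0.16 and -0.56 ± 0.36), and the transglutaminase gene Tgm3 and Krtdap (1.54 ± 0.41 and -1.10 ± 0.34), each with an edgeR adjusted p of at least 0.461.

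Genes of other cells moved with the populations as well. Macrophage and dendritic cell markers (10 of 10 found) summed to 21 to 47.8 CPM in CD34+ a6-high, 9.36 to 128 CPM in CD34- a6-high and 31.1 to 180 CPM in CD34- a6-low libraries. The most abundant were Cd74, at up to 156 CPM, and Cd68, at 5.96 to 22.5 CPM, while Lyz2 reached 8.11 CPM and Ptprc, the pan-leukocyte gene, 2.61 CPM with 4 libraries at 0. Of 8 tested for CD34 by edgeR without the block, 6 were lower and 2 higher in CD34+ cells (median log2 difference -0.92). Cd68 alone passed, higher in CD34+ cells. For both markers together 6 of 8 were lower and 2 higher, and Lyz2 and Tyrobp passed, lower in CD34+ a6-high cells. In KO sums 8 of 9 tested macrophage markers were higher (median log2 difference 1.70 against 0.03 over all genes), 5 at an unadjusted p under 0.05, and edgeR called 0 and DESeq2 1. T and natural killer cell markers (7 of 8 found), of interest beside Gata3, summed to 0.335 to 3.85 CPM, with Cd3e and Cd3g at 0 in 14 of 15 libraries each. Neutrophil markers (4 of 4) summed to 0.0438 to 8.51 CPM, with Retnlg at 0 in 14 of 15. Endothelial markers (8 of 8) summed to 15.7 to 74 CPM in CD34+ a6-high, 4.2 to 9.89 CPM in CD34- a6-high and 2.91 to 26 CPM in CD34- a6-low libraries, with Cdh5 at 0 in 7 of 15, and 6 of 6 tested were higher in CD34+ than in CD34- a6-high cells. Of these 6 endothelial markers DESeq2 called 4, and edgeR called 0 without the block (5 at an unadjusted p under 0.05) and 1 with it. Fibroblast markers (7 of 7) summed to 0 to 4.44 CPM, with Lum at 0 in 15 of 15. Melanocyte markers (6 of 6) summed to 140 CPM in the a6-low library of KO replicate 1 and to 0.669 to 6.7 CPM in the other 14. Sebocyte markers (7 of 7), of interest beside Prdm1, summed to 280 to 535 CPM in CD34+ a6-high, 318 to 476 CPM in CD34- a6-high and 408 to 1288 CPM in CD34- a6-low libraries. Mgst1 was at 219 to 824 CPM and Krt79 at 1.37 to 407 CPM, while Awat2, Cidea and Soat1 did not exceed 1.87, 7.85 and 10.9 CPM. For both markers together 3 of 7 were higher and 4 lower in CD34+ a6-high cells (median log2 difference -0.29). Pparg alone passed by edgeR without the block, higher in CD34+ a6-high cells. With the block edgeR called 2 higher and 2 lower. The part of these cells in the differences of the members was not tested.

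How the members vary together was described by Pearson's r of log2(CPM + 1) over the 15 libraries, which come from 3 populations and share 5 genotype and replicate labels. Of the 45 pairs of members 42 had an r above 0, with a median of 0.53 and a range of -0.35 (Trp63 with Cebpb) to 0.92 (Ovol1 with Cebpa). Grhl3 and Prdm1 had an r of 0.90. For deviations from the 6 group means, which leave out the differences between groups, 33 of 45 pairs had an r above 0, with a median of 0.23 and a range of -0.66 (Grhl3 with Cebpb, 0.14 over all libraries) to 0.85 (Ovol1 with Cebpa). Among 12606 tested protein-coding genes, those most like Trp63 were the matrix metalloproteinase gene Mmp14 (r = 0.97), Chst2 and Matr3 (both 0.93). Most like Gata3 was the oncostatin M receptor gene Osmr (0.92), followed by Acpp and Thap2 (both 0.91). For Klf4 they were Dnajb9 (0.90), Gfod1 and Klf7 (both 0.88), and for Zfp750 Trim29 (0.95), Tnfrsf1a and Mfsd6 (both 0.94). Grhl1 varied most like Nectin2 (0.90), Ppp1cb and Ankrd22 (both 0.89), and Grhl3 most like the protease inhibitor gene Spint1 (0.91), Prdm1 (0.90) and Ugcg (0.89). The closest to Ovol1 were Cebpa (0.92), Gda and Mst1 (both 0.91), and to Cebpa they were Slc41a1, Ovol1 (both 0.92) and Zfp750 (0.91). Cebpb lay closest to Smim13, Xbp1 and Rhov (0.88 each), and Prdm1 to Nus1, Grhl3 (both 0.90) and Rnf11 (0.86).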

How the data were processed

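Read counts per Ensembl gene, whole numbers with no normalization, were deposited for 15 libraries. Per the labels' protocols, cDNA was made with SMART-Seq v4, a kit that does not mark strand. The submitters' processing notes name STAR 2.3.0, Picard 1.100, HTSeq 0.6.0 and mm9 without their roles. Entries that name no gene, 5 a table, were left out. They held multiply aligned (29.86% to 38.04% of records), unassigned (2.61% to 5.13%) and ambiguous reads (1.86% to 2.2%). Identifiers gave symbols for 32860 genes (87.4%). Positions and promoters are of GRCm38. TPM divides the deposited counts by GRCm38 exon lengths, although the notes name mm9, and is approximate to that extent.

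The main test was edgeR 4.0.16 in R 4.3.3, a quasi-likelihood F test with TMM scaling and filterByExpr by group. It fitted all 15 libraries at once with 6 group coefficients, and population differences are the mean of the WT and KO differences. P-values were adjusted by Benjamini-Hochberg over all 14652 tested genes (15597 in the sums) and called at 0.05. SE was derived from the F statistic. Pairs of libraries were compared on log2(CPM + 0.5). Nothing in the labels says that the libraries of 1 group are separate animals, and p-values then measure only the spread between these samples, which may be technical. Replicates differed by more than sampling noise.

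Pairing was checked on how far same-numbered libraries of a genotype deviate together (correlation of deviations from group means). For CD34 it was 0.13 to 0.456 and for both markers together 0.178 to 0.447. All values exceeded 0.1 and these libraries were taken as pairs, on the evidence of the data alone. The 2 KO pairs mirror each other and give 1 value. For a6 (0.041 to 0.458) and for KO against WT (-0.368 to 0.054) no pairing was assumed.

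The edgeR fits and DESeq2 were tested on simulated data. Alternatives were DESeq2 1.42.0, DESeq2 size factors within edgeR, no filter on low counts, a minimum of 10 CPM in 2 libraries, a fit restricted to the compared groups, a replicate block and leaving out each library. Leaving out the 2 a6-low libraries with high Itga6, or the 3 libraries that express Ddx3y, was added after seeing the data. The members and the gene lists were chosen with earlier results of these data known. Named are all members, of each list those past the threshold if 5 or fewer and otherwise the 3 (or, with none, 2) with the smallest p, and the 3 genes most correlated with each member. Of the genes this rule names, 1 is not reported here.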

Additional observations from a re-analysis of the deposited data

Results flagged for a closer look

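Klf4 was at 137 CPM in the CD34- a6-low library of WT replicate 3, far below the others of that population, the next of which was at 194 CPM. Zfp750 was at 155 CPM in the CD34+ a6-high library of KO replicate 1, far above the others, the next of which was at 84.4 CPM. Each gap, divided by the range of the 5 libraries, exceeded Dixon's critical value of 0.71 (0.817 and 0.849). Chance passes this value in about 1 in 20 groups, and 30 groups were examined.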

How the results depend on the processing

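Of the 10 members, the number called for CD34 (0) was 3 with DESeq2, 3 without the filter, 1 with only the compared groups and 3 with the replicate block, and 0 to 1 without any 1 library. For a6 (0) it was 6 with DESeq2, 7 without the filter, 5 with the block (Grhl1, Grhl3, Ovol1, Cebpa and Prdm1, though these libraries were not taken as pairs) and 1 without the 2 a6-low libraries with high Itga6, and 0 to 0 without any 1 library. For both markers together (2) it was 5 with DESeq2, 5 without the filter, 6 with the block, 0 without the libraries that express Ddx3y and 0 to 2 without any 1 library. It stayed at 0 between genotypes and for the interactions under all alternatives run, the block included. Some differences changed sign. For CD34, Ovol1 was at 0.00484 with DESeq2 size factors, 0.00472 with DESeq2 and 0.030 with the block, Cebpb at 0.000712 without the libraries that express Ddx3y, and without 1 library Ovol1 ran from -0.16 to 0.20, Cebpb from -0.081 to 0.043, Grhl1 from -0.29 to 0.38 and Zfp750 from -0.16 to 0.63. For both markers Trp63 ran from -0.087 to 0.15. In the KO sums Grhl1 was at -0.081 with the block, Cebpb at 0.0019 without the libraries that express Ddx3y, and without 1 label Grhl1 ran from -0.37 to 0.37, Ovol1 from -0.14 to 0.59, Cebpb from -0.17 to 0.023 and Zfp750 from -0.22 to 1.23. Over all genes, the 171 calls for CD34 became 846 with DESeq2, 1242 without the filter, 311 with only the compared groups, 793 with the block, 32 without the libraries that express Ddx3y and 7 to 258 without 1 library. The 1 call for a6 became 227, 602, 0, 60, 0 and 1 to 50 in that order, 3 with the stricter filter and 342 without the 2 a6-low libraries. The 722 for both became 1565, 1900, 422, 1733, 116 and 41 to 691. More genes enter the fit without the filter, and fewer libraries when one is left out. The cause of these changes was not tested. Whether depth limits the members was not tested, and their lowest value was 6.56 CPM.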
